A study of Drosophila melanogaster with 12 samples.

Results

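The PIWI-interacting RNA (piRNA) pathway genes measured here were piwi, aub, AGO3, armi, zuc, vret, spn-E, krimp, tej and qin of Drosophila melanogaster. Members were the array rows, called probe sets, whose only annotated gene symbol was one of these names. All 10 genes were found, with 11 probe sets, out of 11982 genes with a probe set of their own and 18952 probe sets in all. The study asked how loss of juvenile hormone, the product of the corpora allata gland, acts on adult females that can or cannot mature eggs. RNA was taken from pools of 25 whole females, with 3 biological replicate arrays for each of 4 genotypes. The labels gave an age of 15 days and the growth protocol ageing to 14 days. Wildtype females had intact corpora allata and no sterility mutation. In CAKO females the corpora allata were knocked out by UAS-NIPP1, an inhibitor of a protein phosphatase, under Aug21-Gal4, a driver active in the corpora allata, together with UAS-GFP. OvoD1 females carried the dominant OvoD1 mutation, which stops egg chambers early in their development, with intact corpora allata. CAKO;OvoD1 females carried both changes. The control background was given as wDah/w1118 in the design text, whereas the study's legend to the array comparison placed CAKO and its wildtype in wDAH and the sterile pair in a mixed background. Every comparison of an OvoD1 genotype with a fertile genotype may therefore also hold a difference in background, and genotype and background cannot be told apart there.

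piRNAs are small RNAs, longer than small interfering RNAs, that guide Argonaute proteins of the PIWI clade to the transcripts of transposons in the gonad. Long precursor transcripts are exported to a perinuclear structure called nuage and to the surface of mitochondria, where they are cut into piRNAs. Aub and AGO3 then cut transposon and precursor transcripts in turn, a cycle called ping-pong, and Piwi enters the nucleus and silences transposons there. In the fly ovary the nurse cells and the oocyte use the full pathway, while the somatic follicle cells around them use a shorter form with Piwi alone. Transposon transcripts were not analysed here.

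Values were log2 expression values on a scale whose lowest value was 2.13, here called the floor, at which between 39.9% and 42% of probe sets on each array lay. A gene was called changed where its adjusted p was under 0.05 and its difference 1.5-fold or more in a limma fit over all 13871 probe sets kept, of which 9968 genes give the background shares below. None of the member probe sets carried the suffix that Affymetrix gives to sets shared between transcripts, and the second qin probe set lay at the floor on all arrays and was left out. The label checks followed the genotypes. ovo, the gene mutated in OvoD1, was lower in OvoD1 females than in wildtype females (log2 fold change of -4.06, adjusted p = 9.6e-11). Other germ line genes fell as well (below), so that the ovo fall alone does not identify the mutation. jhamt, which encodes an enzyme of juvenile hormone synthesis, had a log2 fold change of -1.53 after the knockout in fertile females and of -2.34 after it in sterile females. It was also higher in OvoD1 than in wildtype (1.99) and in CAKO;OvoD1 than in CAKO (1.17). The jhamt mean in CAKO;OvoD1 (4.30) was thus not far below that in wildtype (4.65).

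All 10 piRNA pathway genes fell in sterile females. In OvoD1 against wildtype 10 of 10 were called lower, where 28.5% of all genes tested were, and the median log2 fold change was -3.45 beside 0 over all genes. In CAKO;OvoD1 against CAKO 10 of 10 were again called lower, where 26.5% of all genes were, with a median of -3.63. No member's arrays overlapped between the genotypes in either comparison, as was the case for 38.8% and 36.8% of all genes in the lower direction. The 2 comparisons use separate arrays. In whole flies, fewer germ cells and less RNA per germ cell cannot be told apart.

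**Figure D1:**
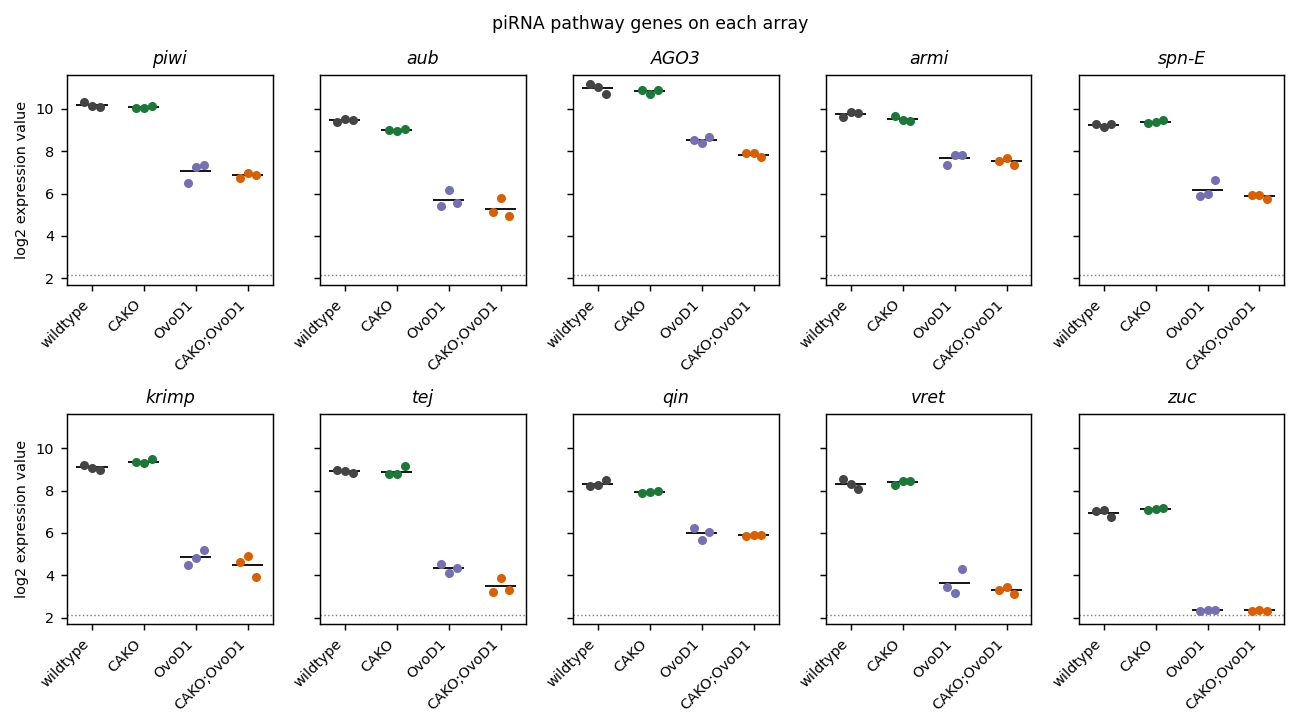
Log2 expression value (vertical axis) of the 10 piRNA pathway genes on each array, by genotype (horizontal axis). Points are arrays, 3 for each genotype, bars are genotype means and the dotted line is the floor of 2.13. For every gene the 6 arrays of fertile genotypes lie above the 6 arrays of OvoD1 genotypes, and zuc lies close to the floor in the latter.

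The Argonaute genes had log2 fold changes between -2.43 and -3.75 in OvoD1 against wildtype. piwi encodes the nuclear member of the clade, which guides transcriptional silencing. On the log2 scale the wildtype arrays gave 10.33, 10.13 and 10.11, and the CAKO arrays 10.05, 10.05 and 10.15. In OvoD1 they were 6.52, 7.26 and 7.36, and in CAKO;OvoD1 6.73, 6.98 and 6.87. The fertile genotypes overlapped each other and so did the sterile ones, with a wide gap between them and with OvoD1 replicate 1 the lowest array. The log2 fold change of OvoD1 against wildtype was -3.14 (SE 0.19), an 8.83-fold lower level with an adjusted p of 4.5e-07 by limma. Without corpora allata it was -3.23 (SE 0.19).

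aub encodes the nuage Argonaute that mostly binds antisense piRNAs. It measured 9.39, 9.54 and 9.47 in wildtype and 9.01, 8.96 and 9.06 in CAKO. OvoD1 arrays gave 5.42, 6.19 and 5.53, and CAKO;OvoD1 arrays 5.13, 5.77 and 4.96. All CAKO arrays lay below all wildtype arrays, whereas the sterile genotypes overlapped. Relative to wildtype, aub was 13.5-fold lower in OvoD1 (log2 fold change -3.75, SE 0.24, adjusted p = 5.1e-07) and 13.2-fold lower in CAKO;OvoD1 than in CAKO. piwi and aub are neighbours, with 1 annotated gene between them.

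AGO3 encodes the partner of Aub in the ping-pong cycle. It measured 11.17, 11.02 and 10.71 in wildtype and 10.90, 10.73 and 10.91 in CAKO. They were 8.55, 8.40 and 8.66 in OvoD1 and 7.90, 7.93 and 7.71 in CAKO;OvoD1. The fertile genotypes overlapped, and all CAKO;OvoD1 arrays lay below all OvoD1 arrays. AGO3 in OvoD1 females was 5.39-fold below wildtype (log2 fold change -2.43, SE 0.12, adjusted p = 1.2e-07) and 7.99-fold lower in CAKO;OvoD1 than in CAKO.

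Genes for precursor processing included the smallest and the largest measured fold change of the members in OvoD1 against wildtype. armi encodes an RNA helicase that brings precursors to the processing nuclease. It measured 9.61, 9.88 and 9.79 in wildtype and 9.65, 9.47 and 9.42 in CAKO. The OvoD1 values were 7.33, 7.84 and 7.83 and the CAKO;OvoD1 values 7.54, 7.67 and 7.35. Each pair of genotypes with the same fertility overlapped. Relative to wildtype, armi was 4.26-fold lower in OvoD1 (log2 fold change -2.09, SE 0.15, adjusted p = 1.1e-06) and 3.98-fold lower in CAKO;OvoD1 than in CAKO, the smallest fold changes of the 10 members in both comparisons.

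zuc encodes the endonuclease on mitochondria that cuts precursors into piRNAs. It measured 7.04, 7.06 and 6.76 in wildtype and 7.09, 7.12 and 7.16 in CAKO. In OvoD1 it measured 2.31, 2.38 and 2.38, and in CAKO;OvoD1 2.32, 2.38 and 2.32. All CAKO arrays were above all wildtype arrays, and the sterile arrays lay just above the floor of 2.13. A level near the floor has only an upper bound, so zuc was at least 24.3-fold lower in OvoD1 than in wildtype (adjusted p = 2.7e-10) and at least 27.5-fold lower in CAKO;OvoD1 than in CAKO. No effect of the knockout on zuc could be measured in sterile females for the same reason.

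vret encodes a Tudor domain protein needed for piRNA production in germ cells and follicle cells. It measured 8.55, 8.32 and 8.10 in wildtype and 8.28, 8.44 and 8.46 in CAKO. They were 3.45, 3.15 and 4.27 in OvoD1 and 3.31, 3.44 and 3.11 in CAKO;OvoD1. OvoD1 replicate 3 stood above the other sterile arrays, and the genotypes of each pair overlapped. vret in OvoD1 females was 25.9-fold below wildtype (log2 fold change -4.70, SE 0.26, adjusted p = 2.2e-07), and 34.4-fold lower in CAKO;OvoD1 than in CAKO.

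The nuage genes had log2 fold changes between -2.36 and -4.57 in OvoD1 against wildtype. spn-E encodes a helicase with a Tudor domain that the ping-pong cycle requires. It measured 9.27, 9.17 and 9.30 in wildtype and 9.35, 9.40 and 9.47 in CAKO. The sterile values were 5.89, 6.0 and 6.66 in OvoD1 and 5.92, 5.93 and 5.76 in CAKO;OvoD1. All CAKO arrays were above all wildtype arrays, and the sterile genotypes overlapped. Relative to wildtype, spn-E was 8.34-fold lower in OvoD1 (log2 fold change -3.06, SE 0.17, adjusted p = 2.6e-07) and 11.6-fold lower in CAKO;OvoD1 than in CAKO.

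krimp encodes a Tudor domain protein that brings Aub and AGO3 together. The wildtype arrays gave 9.22, 9.08 and 8.98 and the CAKO arrays 9.33, 9.32 and 9.47. The OvoD1 arrays gave 4.50, 4.84 and 5.18 and the CAKO;OvoD1 arrays 4.64, 4.91 and 3.90. The lowest CAKO array was above the highest wildtype array, and the sterile genotypes overlapped. krimp in OvoD1 females was 19.1-fold below wildtype (log2 fold change -4.26, SE 0.25, adjusted p = 3.6e-07) and 29.7-fold lower in CAKO;OvoD1 than in CAKO.

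tej encodes a Tudor domain protein of nuage. The level was 8.98, 8.91 and 8.85 in wildtype and 8.77, 8.78 and 9.14 in CAKO. The level was 4.55, 4.11 and 4.36 in OvoD1 and 3.23, 3.85 and 3.32 in CAKO;OvoD1. The fertile genotypes overlapped, and every CAKO;OvoD1 array was below every OvoD1 array. Relative to wildtype, tej was 23.8-fold lower in OvoD1 (log2 fold change -4.57, SE 0.18, adjusted p = 3e-08). At 43.2-fold, its difference between CAKO;OvoD1 and CAKO was the largest of the members with a measured fold in that comparison (log2 fold change -5.43, SE 0.18).

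qin encodes a protein with Tudor domains and a RING domain that keeps Aub paired with AGO3 rather than with itself. It measured 8.23, 8.27 and 8.50 in wildtype and 7.89, 7.92 and 7.96 in CAKO. It measured 6.22, 5.65 and 6.07 in OvoD1 and 5.83, 5.90 and 5.91 in CAKO;OvoD1. All CAKO arrays were below all wildtype arrays, and the CAKO;OvoD1 arrays lay within the range of the OvoD1 arrays. qin in OvoD1 females was 5.12-fold below wildtype (log2 fold change -2.36, SE 0.13, adjusted p = 2.6e-07) and 4.11-fold lower in CAKO;OvoD1 than in CAKO.

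Knockout of the corpora allata in fertile females gave no call for any of the 10 genes. The counts were 0 lower and 0 higher, where 2.3% of all genes were called lower and 3.89% higher, and 1 member (qin) had an unadjusted p under 0.05 by limma. The median log2 fold change was -0.06, beside 0 over all genes, and the members ran from -0.46 for aub to 0.28 for krimp. For qin the log2 fold change was -0.41 (SE 0.13, adjusted p = 0.0835) and for aub -0.46 (SE 0.24, adjusted p = 0.299). The methods' t-test, which takes its spread from the wildtype and CAKO arrays alone, gave smaller p-values without adjustment. They were 0.000932 for aub and 0.00872 for qin, both lower in CAKO, and 0.0317 for krimp and 0.0383 for spn-E, both higher. None of these differences reached 1.5-fold. The 2 members whose CAKO arrays all lay below wildtype (aub and qin) and the 3 whose CAKO arrays all lay above it (spn-E, krimp and zuc) compare with 16.7% and 16.1% of all genes. For 6 of the 10 members (piwi, AGO3, armi, spn-E, tej and zuc) the 95% interval of the difference stayed within 1.5-fold in either direction. For the other 4 it did not, so that a change of that size in aub, krimp, qin or vret was not excluded by this fit. Its intervals use a spread shared over all 4 genotypes, which the sterile arrays widen for some members. The SD of aub was 0.08 in wildtype and 0.05 in CAKO, but 0.42 in OvoD1 and 0.43 in CAKO;OvoD1. For krimp it was 0.12 and 0.09, but 0.34 and 0.52. Follicle cell markers, by contrast, had a mean log2 value of 10.1 to 10.7 on wildtype arrays and 7.79 to 9.42 on CAKO arrays, with 3 of 12 called lower. The genes called were the eggshell genes Cp16, Vm32E and Vm26Aa, and the other eggshell genes fell too, down to -3.69 for Cp15, without a call. Outside the eggshell tj (-0.17), eya (-0.31), mirr (-0.31) and slbo (-0.22) were not called. Of these, tj and slbo lay near the floor even in wildtype (means of 2.49 and 2.65), so that a fall could hardly be measured. The wildtype mean was 4.03 for mirr and 8.58 for eya. Germ line reference genes had 10.3 on the wildtype arrays and 10.2 to 10.3 on the CAKO arrays, with 0 of 10 called.

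In sterile females 2 of the 10 members were called lower after the knockout, where 2.19% of all genes were, and 0 were called higher, where 2.26% were. AGO3 was 1.62-fold lower in CAKO;OvoD1 than in OvoD1 (log2 fold change -0.69, SE 0.12, 95% interval -0.97 to -0.41, adjusted p = 0.00828). tej was 1.83-fold lower (log2 fold change -0.87, SE 0.18, 95% interval -1.29 to -0.46, adjusted p = 0.0168). For these 2 members alone all CAKO;OvoD1 arrays lay below all OvoD1 arrays, which held for 14.1% of all genes. The tej call did not survive the removal of OvoD1 replicate 1, OvoD1 replicate 3, CAKO;OvoD1 replicate 1 or CAKO;OvoD1 replicate 3, each left out in turn (adjusted p between 0.0507 and 0.058), while AGO3 was called in every such fit.

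All 10 members had a log2 fold change below 0 in this comparison, with a median of -0.32, beside 2e-04 over all genes. aub (log2 fold change -0.43, adjusted p = 0.325), krimp (-0.36, adjusted p = 0.412), vret (-0.34, adjusted p = 0.445) and spn-E (-0.31, adjusted p = 0.319) did not pass the test, nor did piwi (-0.19), armi (-0.14), qin (-0.09) and zuc (-0.02, near the floor). The members share their arrays, so that their common direction does not count as separate evidence. The germ line reference genes had an array mean of 4.73 to 5.09 in OvoD1 and of 4.53 to 4.79 in CAKO;OvoD1, a difference of -0.20. Among these 10 genes 1 was called lower and 0 higher, with a median of -0.04. The gene called was zpg (log2 fold change -1.13, adjusted p = 0.00238), which fell further than AGO3 or tej, and the highest was grk (0.53). That mean also holds bcd and bgcn, which lay at the floor, so that its own difference is bounded. Muscle and photoreceptor genes had an array mean of 11.99 to 12.03 in OvoD1 and of 12.15 to 12.46 in CAKO;OvoD1. Taken relative to the germ line reference mean on the same array, the sterile difference was -0.50 for AGO3 and -0.68 for tej. For these 2 members all CAKO;OvoD1 arrays lay below all OvoD1 arrays on that scale too, which held for 2.6% of all genes. With each array centred on its muscle and photoreceptor genes, the log2 fold change was -0.97 for AGO3 (adjusted p = 0.000176) and -1.15 for tej (adjusted p = 0.00117). Under that centring 8.62% of all genes were called lower in this comparison, beside 2.19% in the main fit.

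**Figure D2:**
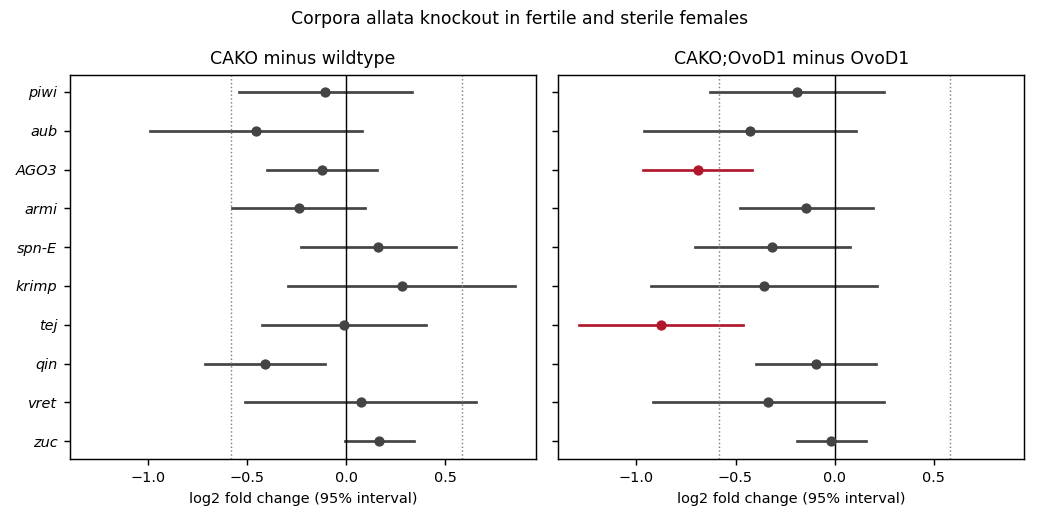
Log2 fold change of each piRNA pathway gene (horizontal axis) after knockout of the corpora allata in fertile females (left) and in sterile females (right). Points are estimates from the limma fit to 3 arrays per genotype, lines are 95% intervals, dotted lines mark 1.5-fold and red marks the genes called. The fertile estimates lie on both sides of 0 with no call, and all 10 sterile estimates lie below 0, with AGO3 and tej called.

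The difference between the sterile and the fertile effect of the knockout was itself tested and gave 0 calls among the members, with 2 (AGO3 and tej) at an unadjusted p under 0.05 by limma. Among all genes 2.22% were called with a lower and 1.34% with a higher effect in sterile females. For tej the difference of effects was -0.86 on the log2 scale (SE 0.26, adjusted p = 0.1), and for AGO3 it was -0.57 (SE 0.17, adjusted p = 0.105). The knockout effect on AGO3 and tej was thus not shown to differ between fertile and sterile females. Leaving out CAKO;OvoD1 replicate 2, in which 9 of the 10 members had their highest value of that genotype, gave a difference of -1.05 for tej with an adjusted p of 0.0319.

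Ordered by mean level, 6 members ran from wildtype through CAKO and OvoD1 to CAKO;OvoD1. The other 4 members (spn-E, krimp, vret and zuc) had CAKO above wildtype and the same order below. The neighbours wildtype and CAKO did not pass the test for any member, and the neighbours OvoD1 and CAKO;OvoD1 passed it for AGO3 and tej only. The spread between replicates was widest in OvoD1, with a median SD of 0.32 over the members against 0.13 in wildtype, 0.07 in CAKO and 0.14 in CAKO;OvoD1. Within OvoD1, replicate 3 had the highest value for 6 members.

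Genes that act elsewhere in the pathway fell in sterile females as well, with smaller medians. In OvoD1 against wildtype 28.5% of all genes were called lower and 25% higher. Of 17 other genes of piRNA biogenesis and nuage, 12 were called lower in that comparison and 1 higher, with a median log2 fold change of -1.50. mael (log2 fold change -3.79), BoYb (-3.67), SoYb (-3.42) and shu (-2.68) fell most. The single gene called higher was tapas (0.67), another Tudor domain gene, and its second probe set gave -4.04 in the same comparison. Without wildtype replicate 1 the tapas value was 0.54, under 1.5-fold. The set that gave 0.67 carries the suffix of sets that can match several transcripts, as do the sets of mael and papi in this list. vas, the helicase that organises nuage, was called lower (-0.69), but its probe set lay near the floor even in wildtype, at 2.28 to 3.38, so that its level was hardly measured.

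All 10 genes for transcription and export of piRNA precursors were called lower in OvoD1 against wildtype, where 28.5% of all genes were. Their median was -1.26. rhi, the chromatin protein that marks the clusters from which precursors are read, had a log2 fold change of -6.09. Nxf3, which exports those precursors, had -4.48, and del, a partner of the rhi product, had -3.99. The 8 genes of nuclear silencing downstream of Piwi were also called lower, with a median of -1.58. Su(var)2-10, a SUMO ligase, had -4.52 and nxf2, a subunit of the complex that silences nascent transposon transcripts, had -2.85. Of 5 genes of the siRNA and miRNA machinery 3 were called lower, with a median of -0.71. They were pasha (-1.86) and drosha (-1.50), whose products act together to process miRNA precursors, and r2d2 (-0.71). Without OvoD1 replicate 1 the r2d2 value was -0.58, under 1.5-fold. Dcr-2, by contrast, had -0.05 and loqs 0.13.

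**Figure D3:**
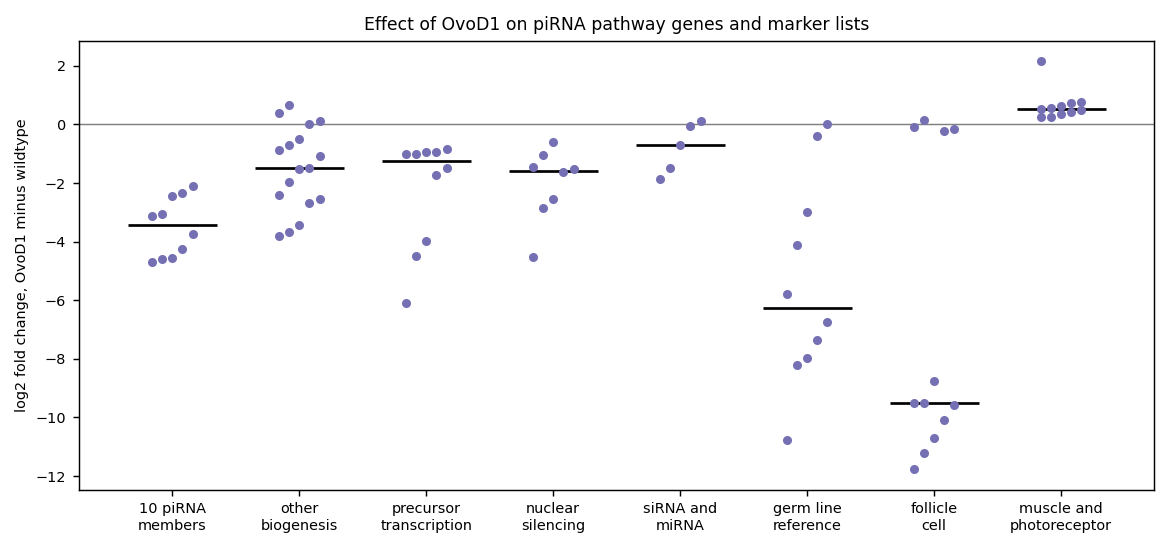
Log2 fold change of OvoD1 against wildtype (vertical axis) for the members, 4 lists of other small RNA genes and 3 lists of marker genes (horizontal axis). Each point is a gene and each bar the list median. The members have a median of -3.45, the germ line reference genes of -6.27, the follicle cell markers of -9.52 and the muscle and photoreceptor genes of 0.54.

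The knockout gave few calls in these lists, as it did over all genes. Of all genes 2.3% were called lower and 3.89% higher in fertile females, and 2.19% and 2.26% in sterile females. With such shares 1 call among 40 genes says little about the lists. In fertile females the only call among the 40 other small RNA genes was moon (log2 fold change 1.46, SE 0.17, adjusted p = 0.000778), a gene required for precursor transcription in germ cells. In sterile females the only call was pasha (0.63, SE 0.10, adjusted p = 0.00542), and without OvoD1 replicate 1 the pasha difference was 0.57, under 1.5-fold. squ, a nuage gene, had -1.67 in sterile females with an SE of 0.48 and did not pass the test (adjusted p = 0.0614), but without CAKO;OvoD1 replicate 1 squ was called at -2.32 with an adjusted p of 0.00132. The second tapas probe set was lower in CAKO;OvoD1 than in OvoD1 (-0.86, adjusted p = 0.0257).

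The fall of the members in OvoD1 females went together with that of germ line genes of other function. Of 10 germ line reference genes 8 were called lower in OvoD1 against wildtype, where 28.5% of all genes were. Their median was -6.27. osk, a localised determinant of the posterior pole, had a log2 fold change of -10.78, and bam, a differentiation factor of early cysts, had -5.79. The OvoD1 mean of bam was 2.84, not far above the floor, so that its fall may be larger. bcd, the anterior determinant, lay at the floor in OvoD1 (mean 2.19 against 10.4 in wildtype), so that its fall was at least 8.21 on the log2 scale. The other 2 were grk (-0.38, under 1.5-fold) and bgcn, which lay at the floor in all genotypes. Follicle cell markers had 8 of 12 called lower with a median of -9.52, all 8 of them eggshell genes. tj, eya, mirr and slbo were not called, but tj and slbo lay near the floor even in wildtype, so that a fall could hardly be measured. Vm32E, which lies at that median, was near the floor in OvoD1, so that the follicle cell median understates the fall if anything. Muscle and photoreceptor genes had 4 of 11 called higher with a median of 0.54, where 25% of all genes were called higher.

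Set against the mean of the germ line reference genes on the same array, the 9 members other than zuc were higher in OvoD1 than in wildtype. zuc was left out because its level near the floor has only an upper bound. The differences ran from 0.74 for vret to 3.35 for armi, since the reference mean itself differed by -5.44. That mean holds bcd and bgcn, which lay at the floor in OvoD1, so that its own fall is bounded by the floor. No arrays overlapped for any of the 9 members, but on this scale the same held for 98.6% of all genes, so that the count says little about the members. In CAKO;OvoD1 against CAKO the differences ran from 0.18 for tej to 3.62 for armi, and 8 of the 9 members did not overlap, beside 98.8% of all genes. The tej arrays did overlap on that scale.

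**Figure D4:**
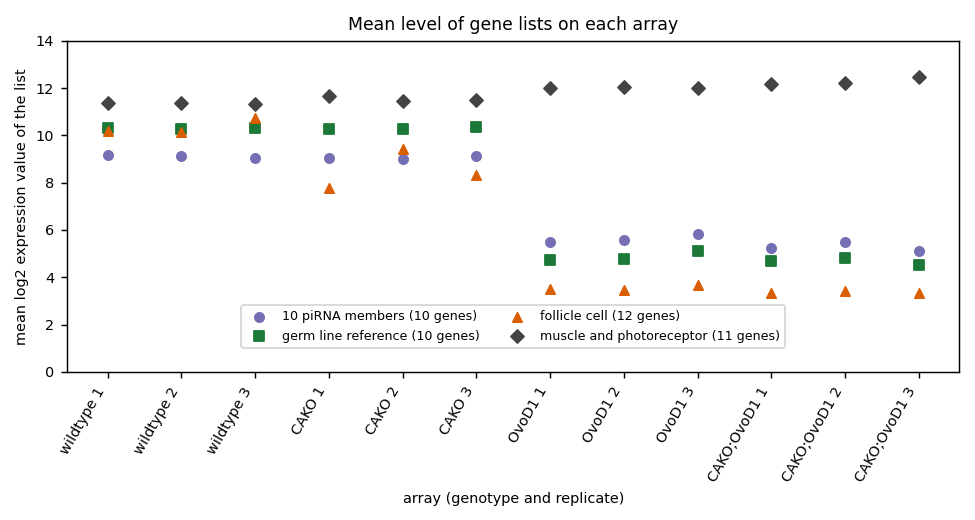
Mean log2 expression value of 4 gene lists (vertical axis) on each of the 12 arrays (horizontal axis, genotype and replicate). The piRNA members go from 9.02 to 9.18 on the fertile arrays to 5.12 to 5.83 on the sterile arrays, and the germ line reference genes from 10.2 to 10.3 down to 4.53 to 5.09. The mean of the follicle cell markers, most of them eggshell genes, is lower on the CAKO arrays than on the wildtype arrays. Muscle and photoreceptor genes are higher on the sterile arrays than on the fertile arrays.

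Over the 12 arrays each member followed the mean of the other members, with Pearson's r between 0.980 for qin and 0.996 for vret. The genes outside the members whose values most followed the members' mean were swa (r = 0.9998), Pen (0.9995), dhd (0.9995), Nph (0.9994) and Nop60B (0.9993). These correlations are carried by the gap between fertile and sterile females, and 715 of 9907 genes had r over 0.99, so that they describe the arrays rather than set these genes apart.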

How the data were processed

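Expression was measured on Affymetrix Drosophila 2.0 arrays, 3 for each of 4 genotypes. The authors deposited log2 values made with GC-RMA (version not given) and quantile normalization, which brings the distributions of the arrays close together. The array medians of the deposited values ran from 2.86 to 2.92. Arrays hold no read depth, and their number sets the limit to precision. Of 18952 probe sets, 13647 named 1 gene, 402 named more than 1 and 4903 had no gene name. No genome build or probe position was given in the sources used here, so no coordinates are printed. The order of piwi and aub was read from the gene positions of the annotation.

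Probe sets in the lowest 25% in all 4 genotypes were left out (5081). The other 13871 were fitted in R 4.3.3 with limma 3.58.1 (lmFit, eBayes with trend, 4 groups, 8 residual degrees of freedom), with two-sided p-values adjusted by Benjamini-Hochberg over all of them. A gene took its probe set with the highest mean. The fit was tested on simulated data. An exact permutation test of 3 against 3 arrays cannot go below p = 0.1, so none is given. The fertile comparison and that of OvoD1 with wildtype share the wildtype arrays, and the other comparisons share arrays in the same way.

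The members and lists were chosen with earlier results of these data known. All members are named, and of each list up to 4 called genes per direction by size. Alternatives were the methods' t-test, other filters, centring, thresholds, probe set rules, array weights, a replicate block and each array left out.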

Additional observations from a re-analysis of the deposited data

Results flagged for a closer look

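Among the genes named in the lists, 6 had a knockout effect that differed between fertile and sterile females by the interaction test in limma, at an adjusted p under 0.05. None of the 10 piRNA pathway members did. moon differed by -1.56 on the log2 scale (adjusted p = 0.00998), with an effect of 1.46 in fertile and -0.11 in sterile females. zpg, a gap junction gene of germ cells, differed by -1.23 (adjusted p = 0.0153), with 0.10 in fertile and -1.13 in sterile females. pasha differed by 0.79 (adjusted p = 0.0167), with -0.16 in fertile and 0.63 in sterile females. Vm32E, a vitelline membrane gene of follicle cells, differed by 1.94 (adjusted p = 0.0374), with -1.92 in fertile females and 0.02 in sterile females. Its level in OvoD1 was 2.36, near the floor of 2.13, so that no fall could be measured in sterile females and the difference restates the fertile value. The adjusted p of Vm32E ranged from 0.0131 to 0.0785 with each array left out in turn, and was under 0.05 only without wildtype replicate 1, CAKO replicate 1 or CAKO replicate 2. papi, a mitochondrial Tudor domain gene of piRNA maturation, differed by 0.29 (adjusted p = 0.043), with -0.27 in fertile and 0.01 in sterile females, and no papi effect reached 1.5-fold. The adjusted p of papi ranged from 0.0152 to 0.0895 with each array left out, and stayed under 0.05 only without a CAKO array. Arr1, a photoreceptor arrestin gene, differed by 0.23 (adjusted p = 0.0159), with -0.08 in fertile and 0.15 in sterile females. No Arr1 effect reached 1.5-fold, and with each array centred on its muscle and photoreceptor genes, Arr1 among them, the difference was 0.15 (adjusted p = 0.785).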

How the results depend on the processing

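The counts of members called lower in the 2 comparisons of OvoD1 with fertile genotypes stayed at 10 under every alternative and with every array left out. In sterile females the count of 2 became 0 under the methods' t-test after adjustment and 0 at a threshold of 2-fold. It became 1 in a fit of only the 2 groups and 1 with array weights, and ranged from 1 to 2 with arrays left out. Centring each array on its muscle and photoreceptor genes made it 5 (aub, spn-E and krimp joined AGO3 and tej). Under that centring 8.62% of all genes were called lower in sterile females, beside 2.19% in the main fit. The fertile count of 0 lower became 1 (qin) under that centring, where 5.18% of all genes were called lower, beside 2.3% in the main fit. The interaction count of 0 became 1 (tej) under the methods' t-test without adjustment, and ranged from 0 to 1 with arrays left out. The cause was not tested. When the value of tapas was the mean of its probe sets, its log2 fold changes reversed, to -1.69 in OvoD1 against wildtype and -2.10 in CAKO;OvoD1 against CAKO. Centring on the array median moved the log2 differences by 0.37 in OvoD1 against wildtype and by 0.36 in CAKO;OvoD1 against CAKO. The muscle and photoreceptor centring shifted these differences by -0.19 (fertile), -0.27 (sterile), -0.65 (OvoD1 against wildtype) and -0.74 (CAKO;OvoD1 against CAKO). Over all genes, called lower and higher in OvoD1 against wildtype changed from 28.5% and 25% to 21.2% and 33.9% with median centring and to 60.5% and 13.7% with muscle and photoreceptor centring.

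Arrays with the same replicate number did not deviate together, with correlations between -0.16 and 0.15 and 2 of 18 pairs over 0.1, so the numbers do not pair the samples. With the replicate number as a block, the members called lower were 0 in fertile females, 2 in sterile females and 10 in each OvoD1 comparison, and the genes called over all in fertile females went from 229 lower and 388 higher to 203 and 375.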
